A study of Mus musculus with 12 samples.

Results

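Mouse dendritic cells grown from bone marrow (BMDC) were examined for the response to lipopolysaccharide (LPS) that remained after JSH-23, in 6 of the 12 RNA-seq libraries of the series. The group WT + JSH23 (3 libraries) received JSH-23 without LPS, and the group WTL + JSH23 (3 libraries) received JSH-23 and then LPS. The libraries were assigned by their sample titles. WT (3 libraries, neither agent) and WTL (3 libraries, LPS without JSH-23) served to test whether the LPS response differed with JSH-23. The cells of all 4 groups came from C57BL/6 mice carrying Rosa26-CreER with an intact Ctcf gene, given as adults in the methods of the study, and were grown from bone marrow with GM-CSF for 6 days with a medium change every 2 days. According to the methods, floating cells were collected and selected for the surface protein CD11c. LPS was given at 100 ng/ml for 3 h and JSH-23 at 100 µM for 3 h before it. Neither source states whether the cells without JSH-23 received its solvent, and whether these cultures had received 4-hydroxytamoxifen, which activates CreER, was not clear from them.

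LPS, a glycolipid from the envelope of Gram-negative bacteria, is bound by CD14 and sensed by TLR4 with its partner MD-2. The adaptors MyD88 and TRIF pass the signal on to NF-κB, to the MAP kinases that feed AP-1, and to the interferon regulatory factors, whose product interferon-β acts back on the cells through JAK and STAT proteins. In resting cells NF-κB dimers that contain RelA are held in the cytoplasm by IκB proteins, and LPS releases them to the nucleus. JSH-23 is a small molecule that blocks the nuclear entry of RelA, and no value in these data measures RelA in the nucleus.

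The promoters of 6 genes are shown because 4 of them rose with LPS after JSH-23 and hold a match to the κB motif bound by NF-κB, and because the other two were among the largest falls and hold none. Each window covers 250 bases before and 50 bases after the transcription start in RefSeq (GRCm38.p6), is written 5′ to 3′ on the strand of the gene, and has motif matches in capitals. Cxcl1 (chr5:90890995-90891294, plus strand), Cxcl2 (chr5:90903649-90903948, plus strand) and Il6 (chr5:30012864-30013163, plus strand) encode secreted proteins, and Nfkbia (chr12:55492598-55492897, minus strand) encodes the inhibitor IκBα. Tifab (chr13:56178836-56179135, minus strand) encodes a relative of the signalling protein TIFA, and Cd300lb (chr11:114934322-114934621, minus strand) encodes a surface receptor of the CD300 family.
Cxcl1: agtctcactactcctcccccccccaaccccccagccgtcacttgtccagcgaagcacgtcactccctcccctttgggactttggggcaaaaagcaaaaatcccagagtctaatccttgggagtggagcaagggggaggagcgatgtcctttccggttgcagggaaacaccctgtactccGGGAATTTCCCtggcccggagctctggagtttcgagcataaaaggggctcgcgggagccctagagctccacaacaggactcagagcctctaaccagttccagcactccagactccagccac
Cxcl2: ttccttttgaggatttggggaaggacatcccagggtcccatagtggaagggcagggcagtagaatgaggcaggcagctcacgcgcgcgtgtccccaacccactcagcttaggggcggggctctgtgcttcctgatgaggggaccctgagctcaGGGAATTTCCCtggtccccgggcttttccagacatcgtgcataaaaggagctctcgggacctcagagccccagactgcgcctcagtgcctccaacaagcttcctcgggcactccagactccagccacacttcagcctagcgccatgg
Nfkbia: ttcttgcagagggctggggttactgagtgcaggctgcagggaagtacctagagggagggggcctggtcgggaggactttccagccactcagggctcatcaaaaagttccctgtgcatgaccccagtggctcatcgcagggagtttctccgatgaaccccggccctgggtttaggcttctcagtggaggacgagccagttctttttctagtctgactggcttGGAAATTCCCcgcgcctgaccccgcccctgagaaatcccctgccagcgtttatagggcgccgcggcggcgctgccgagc
Il6: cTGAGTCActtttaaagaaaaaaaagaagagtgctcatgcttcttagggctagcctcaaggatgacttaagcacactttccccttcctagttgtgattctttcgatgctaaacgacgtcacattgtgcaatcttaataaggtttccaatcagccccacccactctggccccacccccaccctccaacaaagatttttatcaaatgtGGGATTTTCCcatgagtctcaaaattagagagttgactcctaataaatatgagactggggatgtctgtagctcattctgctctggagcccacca
Tifab: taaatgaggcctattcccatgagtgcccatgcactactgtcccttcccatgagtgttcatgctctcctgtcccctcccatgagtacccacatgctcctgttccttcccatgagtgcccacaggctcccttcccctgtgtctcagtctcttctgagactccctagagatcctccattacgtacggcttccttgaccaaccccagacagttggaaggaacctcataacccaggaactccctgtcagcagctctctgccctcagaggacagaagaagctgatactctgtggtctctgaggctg
Cd300lb: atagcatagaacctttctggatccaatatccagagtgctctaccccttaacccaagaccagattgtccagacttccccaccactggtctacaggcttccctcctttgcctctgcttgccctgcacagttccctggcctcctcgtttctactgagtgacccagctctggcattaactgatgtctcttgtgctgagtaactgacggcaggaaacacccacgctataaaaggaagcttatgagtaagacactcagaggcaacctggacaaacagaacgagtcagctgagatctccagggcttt

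The κB motif searched has 10 letters, opens with GGG and closes with CC, and the AP-1 motif searched was TGANTCA, both on either strand. In Cxcl1 and Cxcl2 a pair of overlapping κB matches makes up the stretch in capitals, and in Il6 the match near the 5′ end of the window is AP-1 and the other is κB. Of all 32851 promoter windows, 4.51% held a κB match and 7.81% an AP-1 match. These shares are per window, whereas below a gene counts if any of its windows held a match. Among the 10 genes with the largest rises, 8 had a window, and 2 of these held a κB match (Cxcl1 and Cxcl2) and 1 an AP-1 match (Il1a). Tnf, Il12a and Ptgs2, also among these rises, held no κB match. Among the 10 genes with the largest falls, 8 had a window, 0 held a κB match and 2 an AP-1 match (Gpr35 and Sh2d1b1). Il6 and Nfkbia belong to the 12 fixed genes of the naming rule, of which 11 had a window. Of these, 4 held a κB match (Ifnb1, Il6, Nfkbia and Tnfaip3) and 2 an AP-1 match (Il6 and Tnfaip3). The windows printed were picked with their matches known and do not compare rises with falls. A match describes the letters of the window and not the binding of a factor.

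Expected counts per library ran from 24664724 to 29530439 in the 6 libraries. No library was a copy of another, since replicates of a group differed by more than counting noise. WTL + JSH23 replicate 3 stood somewhat apart, with a chi-square per degree of freedom of 8.18 and 9.11 against its replicates, where the other pairs ran from 3 to 4.5, and without it 817 genes were called higher and 644 lower by the criteria given below. Ctcf had 55.3, 59.1 and 58.8 CPM (counts relative to library size, after TMM scaling, which balances the libraries on the bulk of their genes) in WT + JSH23 and 56, 52.5 and 52.8 CPM in WTL + JSH23, and the groups overlapped. Itgax, which encodes CD11c, had a mean of 290 TPM in WT + JSH23 and 243 TPM in WTL + JSH23 (TPM accounts for gene length), while Cd209a was near 0. The summed level of 10 macrophage markers ran from 1975 to 2036 TPM in WT + JSH23 and from 1523 to 1552 TPM in WTL + JSH23, with all 10 above 1 TPM in both groups. The summed level of 8 dendritic cell markers ran from 319 to 352 TPM and from 296 to 310.1 TPM, in the same order, with 1 of them, Clec9a, called lower. The 10 neutrophil markers summed to between 203 and 222 TPM and between 181 and 198 TPM, with none called and Ly6g near 0. Those of T cells summed to between 3.2 and 5.88 TPM and between 2.4 and 2.54 TPM, and those of eosinophils to between 1.73 and 2.86 TPM and between 1.56 and 1.9 TPM, in the same order. Markers of B cells, NK cells, mast cells, erythroid cells and fibroblasts summed to at most 1.39 TPM in any of the 6 libraries, and Prf1 and Col3a1 were at 0 in all of them. The part of these marker levels in the results below was not tested, and in bulk RNA fewer cells of a type cannot be told apart from less RNA of a gene per cell.

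LPS still moved a broad set of genes after JSH-23. A gene was called when its Benjamini-Hochberg adjusted p from edgeR was under 0.05 and its change exceeded 2-fold. Of the 14357 genes tested, 10.3% were called, 5.85% as higher and 4.49% as lower with LPS. Rises were the larger changes, since 232 genes rose and 87 fell by more than 4-fold, and 39 rose and 9 fell by more than 16-fold. On the adjusted p alone 27.4% of genes were higher and 27.1% lower, and the median log2 fold change of all genes tested was -0.02. Which direction held more called genes depended on the scaling, as upper quartile scaling moved that median to -0.10 and called 727 genes higher and 789 lower in place of 840 and 644.

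The programs that moved were read from 30 gene lists with 485 members, of which 476 passed the filter on low counts and 126 were called. In 5 lists at least as many of the members tested were called higher as were not. These held cytokines, NF-κB genes, MAP kinase feedback genes, itaconate and nitric oxide genes, and nucleotide and lipid receptors. The last list met this at exactly 9 of 18, with the ligand gene Edn1 among the 9. Upper quartile scaling called 7 of its members higher. No member was called in 4 lists, those of MHC class II, MHC class I, glycolysis and the respiratory chain. The counts given below for each list stand against 5.85% of all genes called higher and 4.49% called lower.

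**Figure D1:**
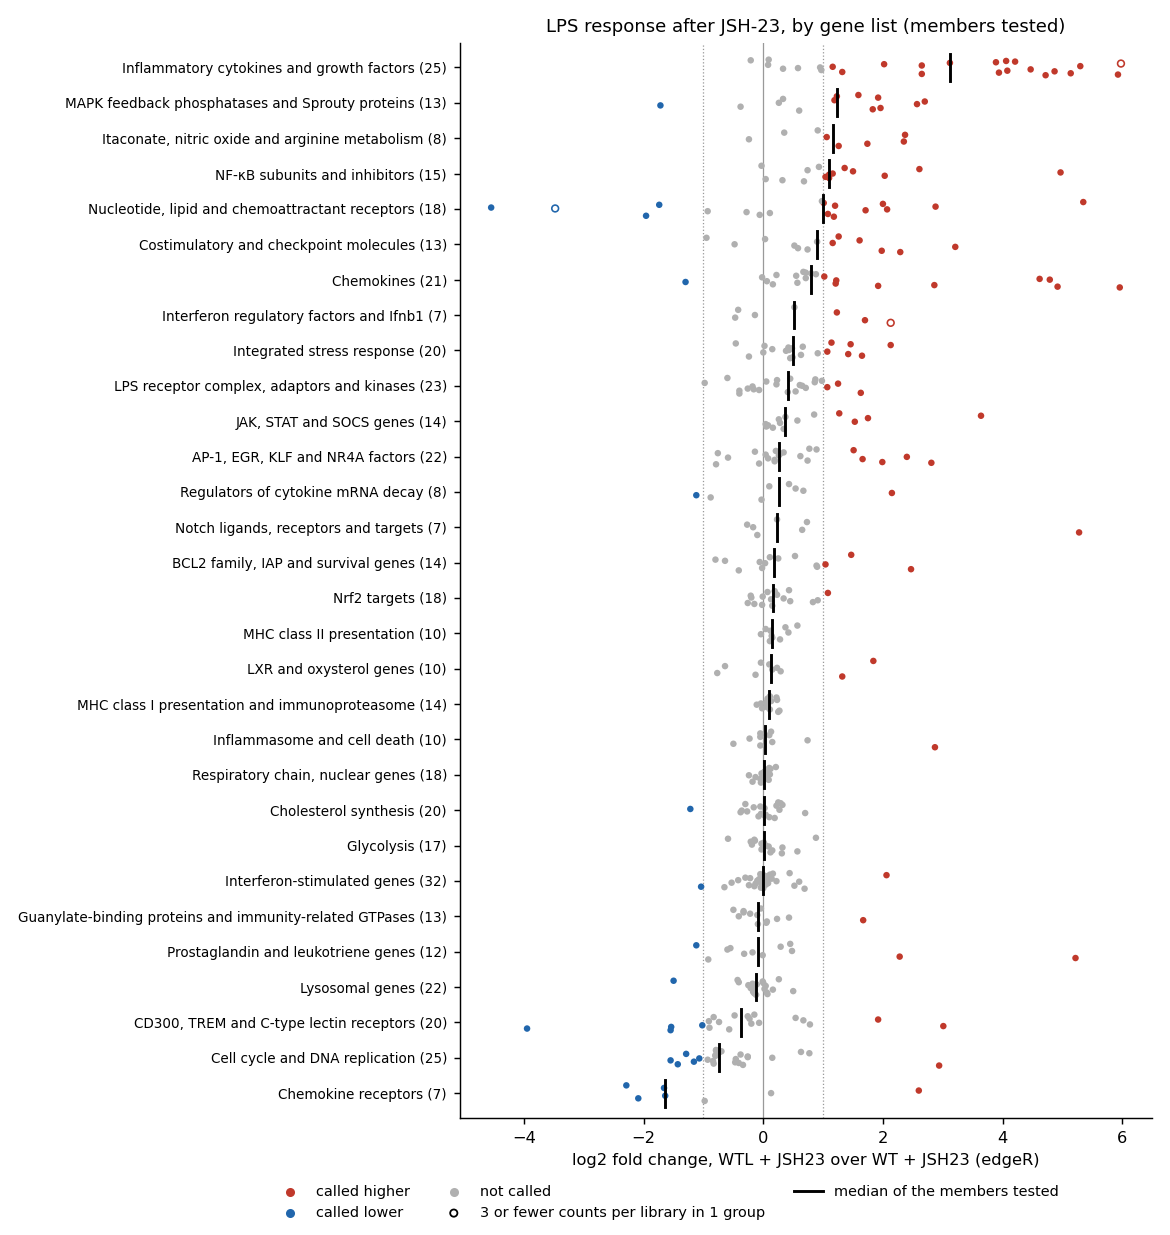
Log2 fold change of each tested member of 30 gene lists, WTL + JSH23 over WT + JSH23, from edgeR, with the number of members tested beside each list and a black bar at the median of these members. Red and blue points are called higher and lower, grey points are not called, open circles have 3 or fewer counts per library in a group, and dotted lines mark 2-fold. The medians run from 3.12 for inflammatory cytokines to -1.64 for chemokine receptors.

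Inflammatory cytokines and growth factors had the highest median of the 30 lists. Of 25 members tested, 18 rose and 0 fell, with a median log2 fold change of 3.12. Csf2 did not pass the filter on low counts. Il12a, the p35 subunit of IL-12, had 0.615, 0.579 and 0.51 CPM in WT + JSH23 and 32.1, 37.7 and 35.4 CPM in WTL + JSH23. Tnf, the gene of tumour necrosis factor, had 28.7, 31.8 and 33.3 CPM without and 1190, 1246 and 1269 CPM with LPS. Every LPS library stood far above every library without LPS for these genes, with log2 fold changes of 5.93 ± 0.11 for Il12a (SE, edgeR adjusted p = 2e-20) and 5.30 ± 0.06 for Tnf (adjusted p = 8.5e-24).

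Il1a, Il1b and Il6 rose as well. Il1a, an alarmin cytokine whose read pairs RSEM divided with other genes in nearly all libraries, had 24.8, 26.3 and 27.2 CPM without and 744, 861 and 689 CPM with LPS. Il1b, the secreted form that caspase-1 processes, had 73.4, 78.1 and 74 CPM without and 1184, 1450 and 1191 CPM with LPS. Il6 had 42.7, 42.8 and 54.6 CPM without and 1153, 1308 and 1229 CPM with LPS. The groups did not overlap for any of these genes, which rose by 4.87 ± 0.08, 4.08 ± 0.07 and 4.72 ± 0.08 on the log2 scale in that order (SE, edgeR adjusted p = 5.6e-21 for each). Their relatives Il1rn (0.97), the antagonist of IL-1, Il33 (0.95), Il18 (0.33) and Osm (0.08) were not called.

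Subunits shared among the IL-12 family were called as well. Il23a, the p19 subunit of IL-23, had 0.522, 0.289 and 0.272 CPM without and 12.4, 13 and 14.1 CPM with LPS, a log2 fold change of 5.14 ± 0.18 (SE, edgeR adjusted p = 6.1e-16). Il12b, the p40 subunit of both IL-12 and IL-23, started from 246, 273 and 306 CPM and reached 1581, 1720 and 1888 CPM, a log2 fold change of 2.65 ± 0.08 (edgeR adjusted p = 3.3e-17). The 2 subunits of IL-27 rose too, Il27 by 3.94 and Ebi3 by 1.32 on the log2 scale. Il10, an anti-inflammatory cytokine, had 1.08, 0.506 and 1.43 CPM without and 18.3, 21.7 and 28.3 CPM with LPS, which is a 22.2-fold rise. Among the TNF relatives, Tnfsf15, Lta and Tnfsf9 rose by 4.21, 4.06 and 3.89 on the log2 scale. Inhba, a subunit of activin A, had 196, 223 and 324 CPM without and 2014, 2059 and 2405 CPM with LPS, a rise of 3.12 ± 0.12 on the log2 scale (edgeR adjusted p = 4e-15). Csf3, the gene of G-CSF, had 0, 2 and 0 counts without and 34, 46 and 48 counts with LPS, a ratio of summed counts scaled for depth of 74.9 with a 95% counting interval of 20.3 to 625.

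The chemokine list split between a few genes with large rises and many that stayed under 2-fold. Of 21 members, 9 rose and 1 fell, with a median log2 fold change of 0.80. Cxcl1, a neutrophil attractant on chromosome 5 (90891241 to 90893115, GRCm38), had 13, 12.8 and 15.4 CPM in WT + JSH23 and 806, 822 and 949 CPM in WTL + JSH23. Its rise of 62.4-fold was the largest under the naming rule (log2 fold change 5.96 ± 0.08, SE, edgeR adjusted p = 1e-22). Cxcl2, its neighbour with a similar role and with divided read pairs in nearly all libraries, had 82.4, 80.9 and 101 CPM without and 2486, 2509 and 3010 CPM with LPS, a log2 fold change of 4.92 ± 0.08 (edgeR adjusted p = 2.1e-21). Ccl3 and Ccl4, which attract monocytes and T cells, rose by 4.79 and 4.62 on the log2 scale, and Cxcl5 and Cxcl3 by 2.86 and 1.92. The monocyte attractants Ccl2 and Ccl7 rose by 1.22 and 1.02, and Cxcl10, an interferon-inducible chemokine, by 1.21. Ccl22, Ccl17 and Ccl5 were under 2-fold, with log2 fold changes of 0.80, 0.88 and 0.71, and each passed on the adjusted p alone. Cxcl14 fell by 1.30, from under 1.1 CPM, and its call was lost with a filter at a mean of 1 CPM and with limma.

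Receptors for chemokines moved the other way. Of 7 members tested, 4 fell and 1 rose, with a median log2 fold change of -1.64. Ccr2, the receptor of CCL2, had 18.9, 18.7 and 13.5 CPM without and 4.75, 4.5 and 2.59 CPM with LPS, and the groups did not overlap (log2 fold change -2.09 ± 0.15, SE, edgeR adjusted p = 9.2e-11). RSEM divided some of its read pairs with other genes. Cx3cr1, the fractalkine receptor, which overlaps other annotated genes, had a log2 fold change of -2.29, and Cxcr4, the receptor of CXCL12, had -1.66. Ccrl2, an atypical receptor that binds chemerin, had 61, 65.2 and 81.2 CPM without and 377, 375 and 503 CPM with LPS, a 6.05-fold rise. Ccr7, which guides dendritic cells to lymph nodes, had 1567 and 1715 CPM on average and a log2 fold change of 0.13 (edgeR adjusted p = 0.025).

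The genes of NF-κB itself and of its inhibitors rose after JSH-23. Of 15 members, 9 rose and 0 fell, with a median log2 fold change of 1.10. Nfkbiz, the nuclear IκBζ that LPS induces, had 13.6, 13.6 and 14.2 CPM without and 424, 452 and 428 CPM with LPS, a log2 fold change of 4.97 ± 0.05 (SE, edgeR adjusted p = 3.8e-24). Tnfaip3, the ubiquitin-editing enzyme A20 that restrains the pathway, had 191, 210.0 and 214 CPM without and 1208, 1267 and 1280 CPM with LPS, a 6.11-fold rise. Nfkbia, whose promoter is printed above, had 207, 212 and 219.9 CPM without and 824, 867 and 912 CPM with LPS, a 4.08-fold rise. No library without LPS reached the level of a library with LPS in any of these genes. The other inhibitors Nfkbid, Tnip1, Nfkbie and Nfkbib rose by 1.50, 1.36, 1.16 and 1.10 on the log2 scale. Among the subunits, Nfkb1 and Nfkb2 rose by 1.10 and 1.04, whereas Rela (0.68), Relb (0.32) and Rel (0.04) were under 2-fold. Several of these calls lay close to the threshold, and limma on log2(TPM + 1) called 5 of the 15 higher.

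Of the 23 genes for the LPS receptor complex, its adaptors and its kinases, 3 rose and 0 fell. Cd14, the co-receptor that hands LPS to TLR4, had 361, 358 and 399 CPM without and 1089, 1127 and 1239 CPM with LPS, a log2 fold change of 1.63 ± 0.05 (SE, edgeR adjusted p = 7e-17). Map3k8, the kinase TPL2 of the ERK branch, rose by 1.25, and Irak3, an inhibitory kinase relative, by 1.07. Tlr4 had a log2 fold change of -0.40, its partner Ly96 of 0.41 and Myd88 of 0.54, all under 2-fold. Limma called 1 member higher, and 1 member was called lower without WTL + JSH23 replicate 3, without WT + JSH23 replicate 1 or with upper quartile scaling.

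Costimulatory genes rose in part, and antigen presentation genes were not called. Of 13 costimulatory and checkpoint genes, 6 rose and 0 fell, with a median of 0.90. Cd70, the ligand of CD27, had 1.81, 2.13 and 2.59 CPM without and 17.9, 20.3 and 22 CPM with LPS, a 9.22-fold rise. Cd40, through which T cells signal to dendritic cells, had 228, 230.2 and 251 CPM without and 1108, 1191 and 1180 CPM with LPS, a log2 fold change of 2.29 ± 0.04 (SE, edgeR adjusted p = 3.1e-20). Cd80, Icam1, Cd200 and Icosl rose by 1.98, 1.61, 1.26 and 1.16 on the log2 scale, while Cd86 (0.74) and Cd274, which encodes PD-L1 (0.52), were under 2-fold. Without WT + JSH23 replicate 1 or replicate 3, or with upper quartile scaling, 1 member was called lower. The MHC class II list had a median of 0.14 over 10 genes with none called, and its largest value was that of the transactivator Ciita (0.57). The 14 genes of MHC class I and the immunoproteasome had a median of 0.09, with log2 fold changes between -0.11 and 0.27.

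Interferon-stimulated genes moved little with LPS after JSH-23, and every member of the lists without a called gene stayed under 2-fold. Of 32 interferon-stimulated genes, 1 rose and 1 fell, against 5.85% and 4.49% of all genes, and the median log2 fold change was 0.00. On the adjusted p alone 9 were higher and 9 lower, which upper quartile scaling changed to 6 and 15. Ifi205, a relative of the DNA sensor AIM2, had 126, 127 and 136 CPM without and 543, 575 and 507 CPM with LPS, and Ifit3, an antiviral RNA-binding protein, had 342, 332 and 342 CPM without and 165, 169 and 161 CPM with LPS. The groups did not overlap for either gene, and their log2 fold changes were 2.06 ± 0.06 (SE, edgeR adjusted p = 1.1e-17) and -1.04 ± 0.04 (edgeR adjusted p = 3.2e-15). RSEM divided read pairs of both with other genes in nearly all libraries. The antiviral genes Mx1, Ifit1, Rsad2, Irf7 and Usp18 had log2 fold changes of -0.03, -0.04, -0.10, -0.07 and 0.07, with mean levels in WT + JSH23 between 166 CPM for Usp18 and 1153 CPM for Rsad2, so that they were well expressed without LPS. The ubiquitin-like Isg15 (0.69) and the OAS relative Oasl1 (0.60) were higher on the adjusted p alone.

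Of the 7 genes on the list of Ifnb1 and the interferon regulatory factors, 3 rose and 0 fell, and on the adjusted p alone 4 were higher and 2 lower. Irf1 had 171, 174 and 180.1 CPM without and 553, 569 and 580.5 CPM with LPS, a log2 fold change of 1.70 ± 0.04 (SE, edgeR adjusted p = 3e-19). It overlaps another annotated gene, and some of its read pairs were divided. Irf4 rose by 1.23 on the log2 scale, and Irf8 (0.52), Irf3 (-0.14), Irf5 (-0.42) and Irf2 (-0.47) were not called. Ifnb1, the gene of interferon-β, had 1, 0 and 3 counts without and 3, 7 and 6 counts with LPS, a depth-scaled ratio of 4.68 with a 95% counting interval of 1.51 to 19.2. Its call was lost without WTL + JSH23 replicate 2 (edgeR adjusted p = 0.065), without WT + JSH23 replicate 1 (adjusted p = 0.058) or replicate 2 (adjusted p = 0.062), and with limma. Of the 13 guanylate-binding proteins and immunity-related GTPases, 1 rose and 0 fell. This was Gbp5, which had 281, 279 and 277 CPM without and 889, 941 and 842 CPM with LPS, a 3.19-fold rise, beside Gbp2 with 2511 and 2354 CPM on average.

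Feedback genes of JAK, STAT and MAP kinase signalling were among those that LPS raised. Socs3, which blocks gp130 and G-CSF receptor signalling, had 16.1, 19.2 and 20.1 CPM without and 223, 255 and 209 CPM with LPS, a log2 fold change of 3.64 ± 0.08 (SE, edgeR adjusted p = 1.2e-19). Socs1, Stat5a and the kinase gene Pim1 rose by 1.75, 1.53 and 1.27 on the log2 scale, which made 4 of 14 members of the list. Stat3 (0.04) was not called. Of 13 MAP kinase phosphatase, Sprouty and Spred genes, 8 rose and 1 fell, with a median of 1.23. The phosphatase gene Dusp14 had 1.75, 1.88 and 1.87 CPM without and 10.8, 12 and 13 CPM with LPS, and rose by 2.70 ± 0.12 on the log2 scale (edgeR adjusted p = 4.5e-14). Dusp8, Dusp4 and Dusp2 followed with 2.57, 1.96 and 1.83, whereas Dusp6, the ERK-directed phosphatase, had a log2 fold change of -1.72.

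Among 22 AP-1, EGR, KLF and NR4A factors, 5 rose and 0 fell. Maff, a small MAF protein, had 9.37 ± 0.59 CPM without and 49.4 ± 2.39 CPM with LPS (SD, n = 3), a 5.27-fold rise with no overlap between the groups. Fosl2 and Batf rose by 1.99 and 1.66 on the log2 scale, and Fosl1 and Nr4a1, both under 3 CPM in every library, by 2.81 and 1.51. Junb (0.74), Jun (0.19) and Fos (-0.79) were not called, and limma called 3 of the 22 higher. Of 8 regulators of cytokine mRNA decay, Zc3h12a, the endonuclease Regnase-1, had 29, 32.1 and 31.6 CPM without and 131, 139 and 141 CPM with LPS, a 4.43-fold rise. Zfp36l2, an AU-rich element binding protein, had 88.3, 93.4 and 88 CPM without and 38.9, 41.1 and 44.6 CPM with LPS. It was the only member of that list called lower by edgeR, with a log2 fold change of -1.12 ± 0.06 (SE, edgeR adjusted p = 4.1e-13), and limma called 2 members lower.

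Metabolic genes moved in specific branches. Of 8 genes for itaconate, nitric oxide and arginine, 5 rose and 0 fell. Slc7a2, a transporter of arginine, had 683, 684 and 753 CPM without and 3580, 3717 and 3699 CPM with LPS, a log2 fold change of 2.37 ± 0.04 (SE, edgeR adjusted p = 1.1e-20). Acod1, which makes itaconate, was high already and had 2405, 2347 and 2534 CPM without and 5769, 5865 and 5830 CPM with LPS, a 2.4-fold rise. Nos2, the inducible nitric oxide synthase, and Arg2, the mitochondrial arginase, rose by 1.74 and 2.35 on the log2 scale. None of the 17 glycolysis genes was called, and their median was 0.01, with log2 fold changes between -0.59 and 0.88. On the adjusted p alone 4 of them were higher and 5 lower. Hk2, a hexokinase, had a log2 fold change of 0.57, and Ldha, lactate dehydrogenase, of -0.15. The 18 nuclear genes of the respiratory chain lay between -0.24 and 0.21.

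Of 12 prostaglandin and leukotriene genes tested, 2 rose and 1 fell, with a median log2 fold change of -0.09. On the adjusted p alone 5 were higher and 6 lower. The 2 that rose encode inducible enzymes of prostaglandin synthesis. Ptgs2, which encodes cyclooxygenase-2, had 77.9, 81.1 and 106 CPM without and 3063, 3229 and 3564 CPM with LPS, a log2 fold change of 5.22 ± 0.09 (SE, edgeR adjusted p = 6.9e-21). Ptges, the inducible prostaglandin E synthase, rose by 2.28. Ptger2, a receptor of prostaglandin E2, fell from 20.7, 19.5 and 19.7 CPM to 9.46, 9.99 and 8.08 CPM, a 2.17-fold difference. Ptgs1, the constitutive cyclooxygenase, had a log2 fold change of -0.92 and was not called, and with upper quartile scaling 2 members of the list were lower.

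In sterol metabolism, 1 of 20 cholesterol synthesis genes fell and 0 rose, against 4.49% and 5.85% of all genes. Dhcr7, a late enzyme of the pathway, had 11.7, 10.8 and 11 CPM without and 4.5, 5.13 and 4.75 CPM with LPS. Ch25h, which makes 25-hydroxycholesterol, had 10.1, 10.7 and 9.67 CPM without and 24.3, 30.1 and 21.7 CPM with LPS, and some of its read pairs were divided with other genes. Gpr183, the receptor of a further oxysterol, had 12.3, 13.6 and 10.9 CPM without and 45.4, 44 and 42.1 CPM with LPS, and it overlaps another annotated gene. All LPS libraries of Ch25h and Gpr183 were above those without LPS, with 2.5-fold and 3.59-fold rises. They were the only 2 genes called of the 10 on the LXR and oxysterol list, whose median was 0.13.

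Of 20 genes of the integrated stress response, 6 rose and 0 fell, with a median of 0.49. Gdf15, a stress-induced cytokine, had 23.6, 22.8 and 32.9 CPM without and 94.8, 92.8 and 161 CPM with LPS, so that replicate 3 was the highest library of each group (log2 fold change 2.13 ± 0.16, SE, edgeR adjusted p = 2.8e-10). Ddit4, Cth, Chac1, Nupr1 and Ppp1r15a rose by 1.65, 1.46, 1.42, 1.14 and 1.07. The transcription factor genes Atf4 (0.45) and Ddit3 (-0.24) were not called, nor was Atf3 (-0.59), which is on the AP-1 list. Limma called 3 of the 20 stress response genes higher. Of 18 Nrf2 targets 1 was called. Sqstm1, the autophagy receptor p62, which overlaps another annotated gene, had 2901, 2799 and 3161 CPM without and 5872, 5753 and 7100 CPM with LPS. Its log2 fold change of 1.08 dropped to 0.98 without WTL + JSH23 replicate 3 and to 0.99 with upper quartile scaling, both under 2-fold. The Nrf2 targets Hmox1 and Nqo1 had values of 0.15 and -0.02.

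Of 20 CD300, TREM and C-type lectin genes, surface receptors of myeloid cells, 4 fell and 2 rose. Cd300lb had 89.2, 90.4 and 83.7 CPM in WT + JSH23 and 5.95, 5.45 and 5.53 CPM in WTL + JSH23, a log2 fold change of -3.95 ± 0.08 (SE, edgeR adjusted p = 7.9e-20). The CD300 family members Cd300a and Cd300lf and the lipid receptor gene Trem2 had log2 fold changes of -1.55, -1.54 and -1.02. In the same list Trem1, an amplifier of inflammatory signals, had 2.3, 2.13 and 2.28 CPM without and 17.9, 19.5 and 17.1 CPM with LPS, an 8.08-fold rise, and Clec4e, the receptor Mincle, rose by 1.92 on the log2 scale. Clec7a, which encodes Dectin-1, had a value of -0.83 and was not called.

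Receptors for nucleotides, lipids and chemoattractants moved in both directions, with 9 of 18 members higher and 4 lower. Lpar6, a receptor of lysophosphatidic acid that overlaps Rb1, had 36.1, 37.2 and 33.7 CPM without and 1.7, 1.79 and 0.994 CPM with LPS, a log2 fold change of -4.55 ± 0.12 (SE, edgeR adjusted p = 2.8e-18). P2ry6, which senses UDP, and C3ar1, the receptor of complement C3a, had values of -1.96 and -1.74. Adora3, an adenosine receptor, had 8, 11 and 11 counts without and 1, 1 and 0 counts with LPS, a depth-scaled ratio of 0.078 with a 95% counting interval of 0.00903 to 0.307. Hcar2, a receptor of nicotinic acid, had 3.53, 3.11 and 4.73 CPM without and 25.5, 27.4 and 31 CPM with LPS, a 7.34-fold rise. The adenosine receptors Adora2b and Adora2a rose by 2.07 and 1.71 on the log2 scale, and the formyl peptide receptors Fpr1 and Fpr2 by 2.00 and 1.01. The list also holds the ligand gene Edn1, the precursor of endothelin-1, which rose by 5.35 from at most 0.306 CPM. Limma called 5 members higher.

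The remaining large falls included genes of the IL-6 receptor, an endosomal GTPase and a signalling adaptor. Tifab had 58.6, 61.7 and 50.9 CPM without and 2.16, 2.39 and 0.951 CPM with LPS, which at 30.5-fold was the largest fall under the naming rule (log2 fold change -4.93 ± 0.13, SE, edgeR adjusted p = 4e-18). Il6ra, the α chain of the IL-6 receptor, had 27.5, 26.9 and 23.8 CPM without and 3.12, 3.7 and 2.94 CPM with LPS, an 8-fold difference. Its signalling partner Il6st, which encodes gp130 and was looked up after the value of Il6ra was seen, fell by 1.01 on the log2 scale.

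Rab7b, a GTPase that directs TLR4 towards lysosomes, had 106, 107 and 104 CPM without and 21, 19.3 and 21.9 CPM with LPS, and the groups lay far apart (5.1-fold). Gpr35, an orphan receptor, had 25, 25.3 and 21.9 CPM without and 3.05, 3.1 and 3.11 CPM with LPS, and Sh2d1b1, an adaptor of SLAM-family receptors, had 21.7, 20.6 and 19.4 CPM without and 4.57, 4.5 and 3.54 CPM with LPS. Tfeb, a transcription factor of lysosomal genes, was the only one of 22 genes of the lysosome list to be called, with 41.6, 40.5 and 40.8 CPM without and 14.2, 13.8 and 15.3 CPM with LPS. On the adjusted p alone 13 of these 22 genes were lower and 3 higher.

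**Figure D2:**
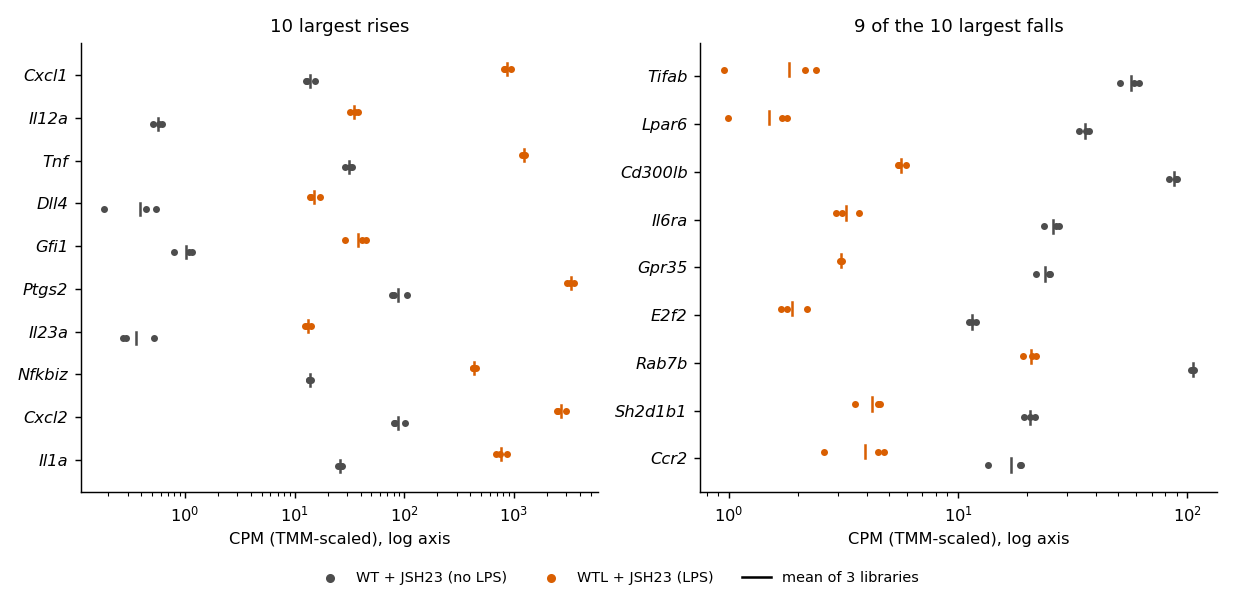
TMM-scaled CPM on a log axis in each of the 6 libraries for the 10 largest rises (left) and 9 of the 10 largest falls (right) under the naming rule, with grey points for WT + JSH23, orange points for WTL + JSH23 and bars at the mean of 3 libraries. The groups do not overlap for any of the 19 genes, which the naming rule required, and Cxcl1 rises from between 12.8 and 15.4 CPM to between 806 and 949 CPM.

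The largest rises also held genes of Notch signalling and transcriptional repression. Dll4, a ligand of Notch receptors, had 0.184, 0.543 and 0.442 CPM without and 13.8, 14.2 and 17 CPM with LPS, a log2 fold change of 5.28 ± 0.21 (SE, edgeR adjusted p = 8e-15). It was the only gene called among 7 Notch genes tested, beside Jag1 with 0.65 and Notch1 with -0.27. Gfi1, a transcriptional repressor, had 1.17, 0.796 and 1.09 CPM without and 41.6, 44.6 and 28.7 CPM with LPS, a 37.3-fold rise.

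Survival and inflammasome genes were called in small numbers. Bcl2l1, which encodes the survival protein BCL-XL, had 28.1, 31.4 and 34 CPM without and 168, 173 and 177 CPM with LPS, a log2 fold change of 2.47 ± 0.06 (SE, edgeR adjusted p = 6.7e-19). Cflar, an inhibitor of caspase-8, and Bcl2l11, the death-promoting BIM, rose by 1.47 and 1.04, which made 3 of 14 members. Nlrp3, the sensor of the inflammasome, had 55.5, 59.9 and 61.9 CPM without and 419.8, 434 and 444 CPM with LPS, a 7.32-fold rise. It was the only one of 10 inflammasome and cell death genes called, and Casp1 had a log2 fold change of 0.15.

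Among 25 cell cycle and DNA replication genes, 5 fell and 1 rose, with a median log2 fold change of -0.74, and on the adjusted p alone 21 were lower and 4 higher against 27.1% and 27.4% of all genes. Mki67, the proliferation marker Ki-67 on chromosome 7 (135689784 to 135716361, GRCm38), had 47.9, 51.7 and 46.4 CPM without and 377, 371 and 371 CPM with LPS, a log2 fold change of 2.94 ± 0.04 (SE, edgeR adjusted p = 9.3e-22). Aurkb, Ccna2, Rrm2 and Plk1, which serve mitosis and DNA synthesis, had values of -1.55, -1.43, -1.29 and -1.16. Ccna2 overlaps another annotated gene. Mcm2, a subunit of the replicative helicase, had 10.7 ± 1.08 CPM without and 5.06 ± 0.313 CPM with LPS (SD, n = 3), and its log2 fold change of -1.07 became -0.99 without WT + JSH23 replicate 2. Tyms (0.77) and Ccne1 (0.63) were higher on the adjusted p alone. E2f2, a transcription factor of the cell cycle that is not on the list, had 11.5, 12 and 11.2 CPM without and 2.2, 1.79 and 1.69 CPM with LPS, a 6.06-fold difference.

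**Figure D3:**
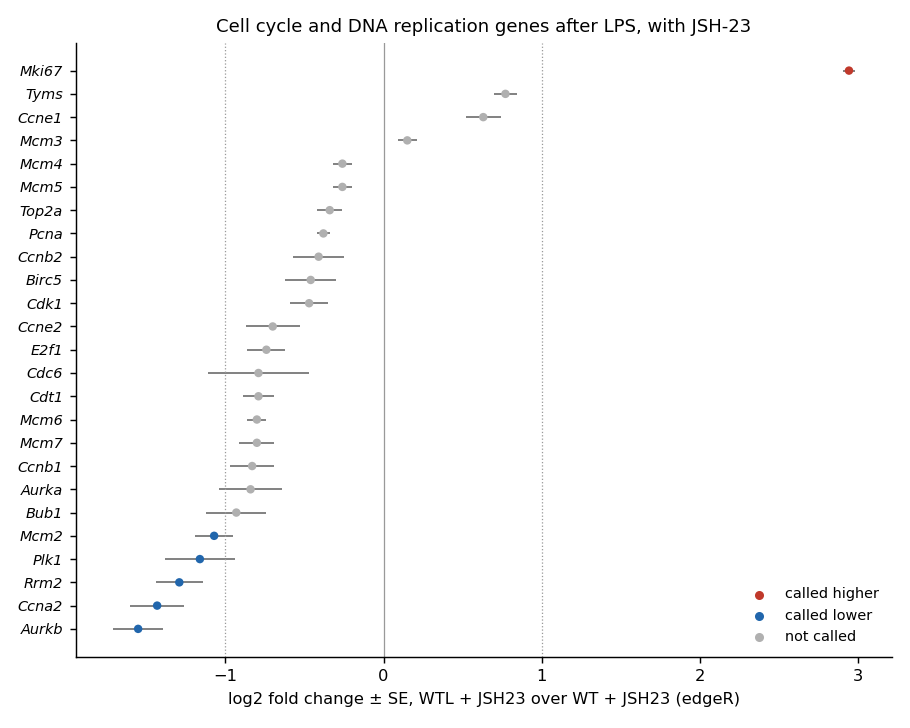
Log2 fold change with its SE of 25 cell cycle and DNA replication genes, WTL + JSH23 over WT + JSH23, from edgeR, in order of size, with red and blue points for genes called higher and lower, grey points for genes not called and dotted lines at 2-fold. Mki67 lies at 2.94, and 21 of the other genes lie below 0.

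Whether the LPS response differed with JSH-23 was tested by subtracting the log2 change of WTL over WT from that of WTL + JSH23 over WT + JSH23, in the same edgeR model at an adjusted p under 0.05. This difference was higher with JSH-23 in 9.54% of the 14357 genes and lower in 8.44%, and with DESeq2 size factors in edgeR these counts changed from 1370 and 1212 to 1150 and 1474. Among the 840 genes that LPS raised after JSH-23, the rise was smaller than without JSH-23 in 209, larger in 53 and not shown to differ in 578. Among the 644 genes that LPS lowered, the fall was smaller in 126, larger in 16 and not shown to differ in 502. The called genes share the JSH-23 libraries with this difference.

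The lists differed in how often the LPS change was lower with JSH-23. Over all genes tested it was lower in 8.44% and higher in 9.54%. Among interferon-stimulated genes it was lower in 25 of 32 and higher in 0, with median LPS changes of 0.00 with and 0.31 without JSH-23. With DESeq2 size factors 27 were lower. The size was moderate, with differences of -0.86 for Mx2, whose read pairs were partly divided with other genes, -0.62 for Usp18, -0.52 for Rsad2 and -0.48 for Mx1. For chemokines 12 of 21 were lower and 2 higher, for cytokines 11 of 25 and 2, and for MHC class I 7 of 14 and 0. For NF-κB genes 5 of 15 were lower and 0 higher. The integrated stress response showed the other balance, with 2 of 20 lower and 7 higher, among them Asns (0.68) and Ddit4 (0.79). Cell cycle genes had 1 of 25 lower and 3 higher.

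Several falls were smaller after JSH-23. Cd300lb fell from 61.2, 67.7 and 58.9 CPM in WT to 1.08, 1.6 and 1.98 CPM in WTL, so that its level after LPS was lower in every library without JSH-23 than in any with it, and the difference of its log2 changes was 1.39 ± 0.17 (SE, edgeR adjusted p = 7.9e-06). Rab7b had 80.0, 89.5 and 83.1 CPM in WT and 7.09, 7.2 and 8.89 CPM in WTL, a difference of 1.11 ± 0.10 (adjusted p = 2e-07). Zfp36l2 had 118, 135 and 127 CPM in WT and 32, 30.2 and 33.8 CPM in WTL, a difference of 0.87 ± 0.08 (adjusted p = 3.1e-07).

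Among the rises, Shisa3, which overlaps Atp8a1, had 0.367, 0.37 and 0.552 CPM in WT and 43, 38 and 32.9 CPM in WTL, but 0.891, 0.687 and 1.23 CPM and then 23.2, 27.4 and 26 CPM with JSH-23. The difference of its log2 changes was -1.72 ± 0.34 (SE, edgeR adjusted p = 0.0013). Cxcl3 had 355, 379 and 354 CPM in WT and 3427, 3377 and 3285 CPM in WTL, against 1172, 1034 and 1212 CPM and then 4186, 4329 and 4435 CPM with JSH-23. Its smaller rise (-1.29 ± 0.07, adjusted p = 7.2e-11) thus came with higher levels both before and after LPS, and some of its read pairs were divided with other genes. Nfkbiz had 27.4, 26.1 and 24.6 CPM in WT and 848, 834 and 788 CPM in WTL, levels above those with JSH-23 in both states, and the difference of its log2 changes was -0.01 ± 0.07 (adjusted p = 0.96). For Nfkbia and Tnfaip3 the differences were -0.12 ± 0.06 (adjusted p = 0.16) and -0.07 ± 0.06 (adjusted p = 0.48), and for Mki67 0.19 ± 0.06 (adjusted p = 0.026), the last of which DESeq2 size factors did not keep.

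Mid1, a ubiquitin ligase gene on the X chromosome, was the only gene under the naming rule whose LPS changes had opposite signs. It had 11.8, 11.2 and 14.3 CPM in WT + JSH23 and 22.6, 18.7 and 43.8 CPM in WTL + JSH23, where replicate 3 stood apart, and 5.9, 5.95 and 5.93 CPM in WT and 4.8, 4.2 and 5.16 CPM in WTL. Its LPS change was 1.18 ± 0.20 with JSH-23 (SE, edgeR adjusted p = 3.2e-05) and -0.34 ± 0.28 without (adjusted p = 0.3). Without WTL + JSH23 replicate 3 the former was 0.73. Its read pairs were divided in nearly all libraries and it overlaps another annotated gene.

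**Figure D4:**
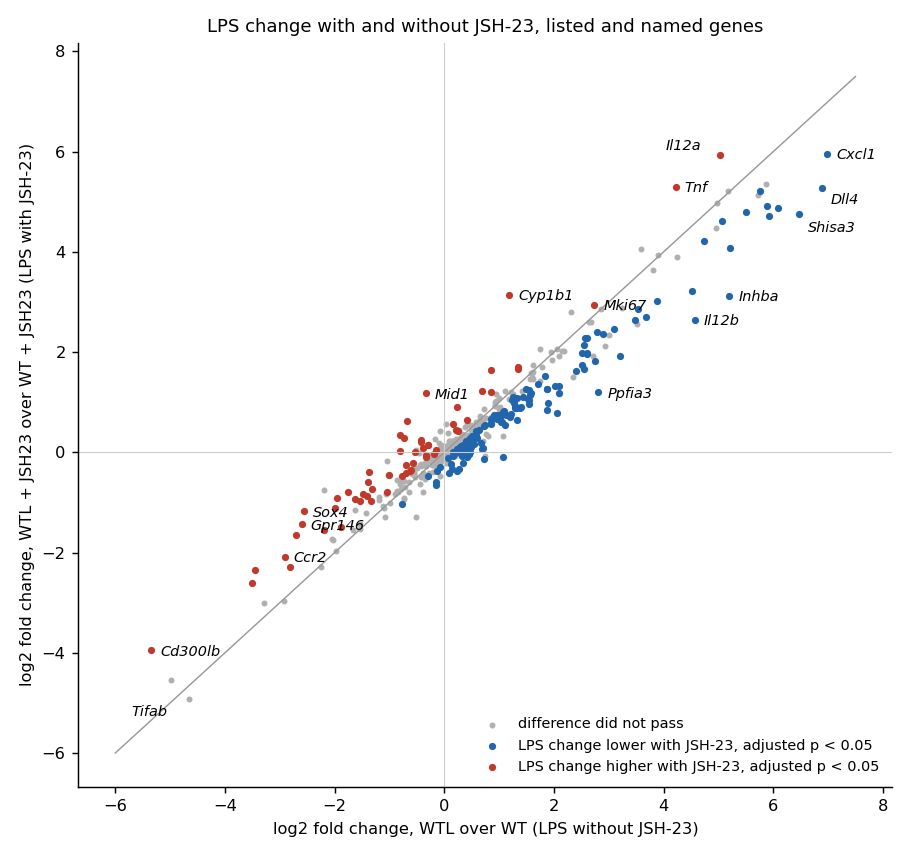
Log2 fold change of LPS after JSH-23 (vertical) against LPS without JSH-23 (horizontal) for listed and named genes, each from edgeR, with the grey diagonal marking equal changes and low-count genes left out. Blue points have a lower and red points a higher LPS change with JSH-23 at an adjusted p under 0.05, grey points did not pass, and Dll4 (5.28 against 6.89) and Cd300lb (-3.95 against -5.35) lie on opposite sides of the diagonal.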

How the data were processed

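Bulk RNA-seq of 12 libraries in 4 groups was used. The authors trimmed reads with Trim Galore, aligned them to mm10 with STAR (2.6.0c per the labels) and estimated expected counts and TPM per gene with RSEM, and both were deposited with no normalization between libraries. The GENCODE release, and whether counting used strand, are not given in the sources used here. The labels name rRNA depletion and the methods name poly(A) selection, so that which kit was used is not known here. Gene symbols and positions came from GENCODE M21 (GRCm38), and promoter windows from RefSeq (GRCm38.p6).

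Expected counts were rounded, filtered with filterByExpr, scaled by TMM and tested with the quasi-likelihood F-test of edgeR 4.0.16 (R 4.3.3) on all 12 libraries with one mean per group. P values were Benjamini-Hochberg adjusted over the 14357 genes tested (99.94% to 99.95% of each library). The SE of a log2 fold change is its size divided by the square root of F. Counting intervals cover counting error only. Divided read pairs and overlaps were not pointed out for every gene. For example, Ebi3, Nfkb2 and Arg2 had divided read pairs in all 12 libraries, and Il27 and Cxcl10 overlap another annotated gene. Alternatives used DESeq2 1.42.0, limma 3.58.1 on log2(TPM + 1), other scalings and filters, a replicate block and the omission of each library. Tables and figures were made with Python 3.11.15 and matplotlib 3.10.9.

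The methods state 3 biological replicates, whereas the labels do not say that libraries came from separate cultures, and p values then measure only the spread between these libraries. No culture or sequencing batch is labelled. The gene lists and the naming rule were chosen with earlier results of these data known. The rule names 62 genes, namely the 10 largest rises and falls among called protein-coding genes with more than 3 counts in each of the 6 libraries, a mean level no lower than 10 CPM in the group where the gene is higher, and libraries that do not overlap, the largest rise and fall of each list under the same conditions, 12 fixed genes, and the 5 highest and 5 lowest differences between the LPS changes with and without JSH-23. Other list members are examples chosen after their values were seen. Results of 4 genes, 1 of them under the naming rule, are not reported here.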

Additional observations from a re-analysis of the deposited data

Results flagged for a closer look

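Of the 62 genes under the naming rule, 40 had an LPS change that was not the same with JSH-23 as without it (edgeR, adjusted p under 0.05 for the difference itself). Values are the log2 change with JSH-23 minus that without, 39 of them are given, and no explanation was tested.

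Some genes that LPS raised in both settings had a negative value, a smaller rise after JSH-23. Among them were the secreted factors Inhba (-2.07), Il12b (-1.92), Il6 (-1.21), Il1a (-1.20), Cxcl1 (-1.03) and Cxcl2 (-0.96). Inhba had 42.4 CPM in WT and 1558 CPM in WTL on average, against 248 CPM in WT + JSH23 and 2159 CPM in WTL + JSH23. Cxcl1 also had higher mean levels with JSH-23 in both states. Il12b, Il6 and Cxcl2 were higher on average with JSH-23 before LPS and lower after it, and Il1a was lower in both states. Shisa3 (-1.72), Ppfia3 (-1.60), Dll4 (-1.60) and Cd70 (-1.31) differed by more than Il6. Further genes were Dusp14 (-0.99), Trem1 (-0.87), Ch25h (-0.78), Cd14 (-0.78), Bcl2l1 (-0.62), Ptgs2 (-0.54) and Slc7a2 (-0.52). Smaller differences were found for Maff (-0.39), Zc3h12a (-0.39), Cd40 (-0.27), Sqstm1 (-0.25) and Acod1 (-0.23). A larger rise after JSH-23 was found for Cyp1b1 (1.96), a cytochrome P450, for Tnf (1.08), Il12a (0.90), Irf1 (0.35), Gbp5 (0.32) and Mki67 (0.19), of which limma did not keep Il12a and Mki67. Each of these genes had a lower mean level with JSH-23 than without, both before and after LPS. Tnf had 109.5 CPM in WT and 2043 CPM in WTL on average, against 31.3 CPM in WT + JSH23 and 1235 CPM in WTL + JSH23. For Il12a the means were 2.71 and 88.7 CPM without JSH-23, against 0.568 and 35.1 CPM with it.

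Genes that LPS lowered in both settings fell less after JSH-23 for Cd300lb (1.39), Sox4 (1.38), Gpr146 (1.16), Rab7b (1.11), E2f2 (0.90), Zfp36l2 (0.87), Ccr2 (0.82), Sh2d1b1 (0.53) and Tfeb (0.38), and fell more for Ifit3 (-0.26). Ccr2 was lower with JSH-23 in both states. Its means were 149 CPM in WT and 19.9 CPM in WTL, against 17 CPM in WT + JSH23 and 3.95 CPM in WTL + JSH23. The other genes that fell less had higher mean levels after LPS with JSH-23 than without. Sox4, a transcription factor, had 22.3, 19.8 and 22.9 CPM in WT, 4.11, 3.33 and 3.59 CPM in WTL, 17.7, 16.8 and 14.1 CPM in WT + JSH23 and 7.02, 6.8 and 7.69 CPM in WTL + JSH23. Mid1 (1.52) had changes of opposite sign, but its fall without JSH-23 was not shown (-0.34 ± 0.28, SE, edgeR adjusted p = 0.3).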

How the results depend on the processing

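No named gene changed direction under any alternative run, but the balance of higher and lower calls did, as upper quartile scaling gave 727 rises and 789 falls, and DESeq2 size factors gave 1150 differences higher and 1474 lower with JSH-23 in place of 1370 and 1212. The main edgeR fit made 1484 calls (840 higher, 644 lower). Limma on log2(TPM + 1) made 613 calls of its own (305 higher, 308 lower) and kept 36.6% of those of the main fit. Without a fold threshold there were 7828 calls (3935 and 3893), and a filter at a mean of 1 CPM gave 408 lower. The median of all genes moved to -0.16 with TPM and to -0.10 with upper quartile scaling. With a 2-fold threshold, 192 genes in place of 2582 differed between the LPS changes with and without JSH-23. Leaving out each library in turn gave 1451 to 1513 calls, 817 to 858 higher, 610 to 671 lower, and 1880 to 2838 genes for that difference. Deviations of same-numbered JSH-23 libraries had correlations of 0.01, 0.02 and 0.06, and those of differently numbered ones ran from -0.06 to 0.04. No strong pairing by replicate number was seen, but values this small cannot exclude pairing. With the replicate block in all 12 libraries there were 839 higher, 645 lower and 2968 differences, and in the 6 JSH-23 libraries alone 759 higher and 582 lower. Of the named genes, limma lost the calls of Sqstm1, Ifnb1, Mid1 and Ppfia3, and the differences of Il12a, Ptgs2, E2f2, Sh2d1b1, Ifit3, Maff, Zc3h12a, Sqstm1, Mki67, Acod1 and Cd40. Leaving out a library lost the difference for Sqstm1, Dll4, Mki67, Sh2d1b1, E2f2 and Ccr2 in at least 1 fit, and DESeq2 size factors lost it for Mki67. Ifnb1 had no value with the 1 CPM filter or in the fit of the 6 JSH-23 libraries. The cause was not tested in any of these cases. With 3 libraries per group, genes near 2-fold or under a few counts are the least certain.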
